A study of Drosophila melanogaster with 3 samples.

Results

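Chro and 8 other Drosophila genes that encode insulator or architectural chromatin proteins were examined for calls of the CG10565 protein. The genes were taken by symbol from the annotation, as 9 of 18277 genes on the main chromosomes, and are Chro, pzg, BEAF-32, M1BP, Trl, CTCF, su(Hw), Cp190 and mod(mdg4). They were chosen by the calls described here, since the peaks at Chro and several others were already known from these lists when the set was drawn up. Their ranks and signals are therefore given as a description, without a test. A call belonged to a gene when its summit, the position of highest signal, fell inside that gene or no more than 1000 bp outside it.

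The data were lists of regions from chromatin immunoprecipitation and sequencing (ChIP-seq). All samples formed 1 group, Drosophila melanogaster whole embryos of both sexes, collected 0 to 24 hours after laying, from a transgenic line that stably expresses CG10565 fused at its C terminus to eGFP. The tagged protein was precipitated with an anti-GFP antibody from sonicated chromatin of 200 to 800 bp, in 3 biological replicates that the labels number 1, 2 and 4. Neither the promoter behind the transgene nor the presence of untagged protein is stated in the labels, and whole embryos mix all cell types and many stages. The lists hold no expression values, so the embryo label could not be checked against marker genes. There were 30000 calls in the pooled list and in each replicate list, ranked here by the authors' signal with rank 1 the strongest. Signal can be compared only within a list, and the depth of sequencing is unknown. The authors' optimal list by irreproducible discovery rate (IDR), a measure of how alike calls rank between replicates, held 1143 peaks. These were exactly the pooled calls of rank 1 to 1143, down to a signal of 106, so a peak can be in the list without a like rank, or any call, in each replicate.

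Insulator proteins divide chromosomes into domains and limit which enhancers reach which promoters. In Drosophila some of them bind DNA by sequence, including BEAF-32, CTCF, Su(Hw), the GAGA factor encoded by Trl, and M1BP. Others, such as Cp190 and Mod(mdg4), are cofactors with a BTB domain that join complexes through those binders, while Chromator (the product of Chro) and Putzig (the product of pzg, also called Z4) act together at active chromatin between the bands of polytene chromosomes. The precipitated protein itself, CG10565, is the fly relative of DNAJC2, a J-domain chaperone that works beside the ribosome.

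The strongest peaks of Chro, Trl, mod(mdg4), Cp190 and M1BP are shown as sequence, because the calls at these genes ranked highest. Each sequence was read from release 6 of the genome on the strand of the insulator protein gene, and untranslated regions were left out apart from 1 site of 30 bases in the Chro peak. Capitals mark the letters CGATA, the core bound by BEAF-32, or their reverse complement TATCG. Lines without capitals hold no such match.
Chro, site near the summit, chr3L:22878880-22878909: gttagtttaaagcTATCGacaggcaataca
Chro, part of the peak between Chro and Ssl1, chr3L:22878985-22879054: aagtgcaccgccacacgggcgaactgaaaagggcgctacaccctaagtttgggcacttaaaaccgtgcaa
Trl, peak in an intron, chr3L:14759386-14759578: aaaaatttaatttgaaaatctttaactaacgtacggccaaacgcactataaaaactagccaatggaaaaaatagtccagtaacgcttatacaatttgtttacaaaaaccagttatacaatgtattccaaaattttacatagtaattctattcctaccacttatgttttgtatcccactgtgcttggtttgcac
mod(mdg4), stretch between internal start sites, chr3R:21365489-21365608: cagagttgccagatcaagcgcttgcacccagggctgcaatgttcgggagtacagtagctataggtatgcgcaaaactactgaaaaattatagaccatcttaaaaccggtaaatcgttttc
Cp190, stretch between Cp190 and CG4338, chr3R:15275242-15275521: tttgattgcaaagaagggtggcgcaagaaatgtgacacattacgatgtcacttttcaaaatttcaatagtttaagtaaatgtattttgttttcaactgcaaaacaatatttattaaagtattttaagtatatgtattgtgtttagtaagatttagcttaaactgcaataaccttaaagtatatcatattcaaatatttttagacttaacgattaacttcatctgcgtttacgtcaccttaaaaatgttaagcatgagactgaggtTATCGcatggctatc
M1BP, stretch upstream of M1BP, chr3R:8731699-8731998: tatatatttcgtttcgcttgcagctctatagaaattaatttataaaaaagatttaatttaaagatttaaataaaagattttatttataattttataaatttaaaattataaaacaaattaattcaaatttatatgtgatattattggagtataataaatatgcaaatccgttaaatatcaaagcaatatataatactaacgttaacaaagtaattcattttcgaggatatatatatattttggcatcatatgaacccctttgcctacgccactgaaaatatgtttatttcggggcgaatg

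All 9 genes had at least 1 pooled call, as did 68.7% of all genes. The peaks of the IDR list reached 6 of the 9, against 8.3% of all genes and 9.62% of the 13968 protein-coding genes. Those 6 were Chro, Trl, mod(mdg4), Cp190, M1BP and BEAF-32, with 8 IDR peaks between them. With no window added around the gene, the count was 3 of 9 (Chro, Trl and mod(mdg4)), against 3.22% of all genes, since the peaks of Cp190, M1BP and BEAF-32 lie upstream of the gene. CTCF, su(Hw) and pzg had weaker pooled calls only. A top call, meaning a call among the strongest 1143 of a list, was present in every replicate at 3 of the 9 genes, against 3.83% of all genes. These 3 were Chro, Trl and mod(mdg4). Since the calls guided the choice of genes, nothing is read from the distance between these counts and the shares of all genes.

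**Figure D1:**
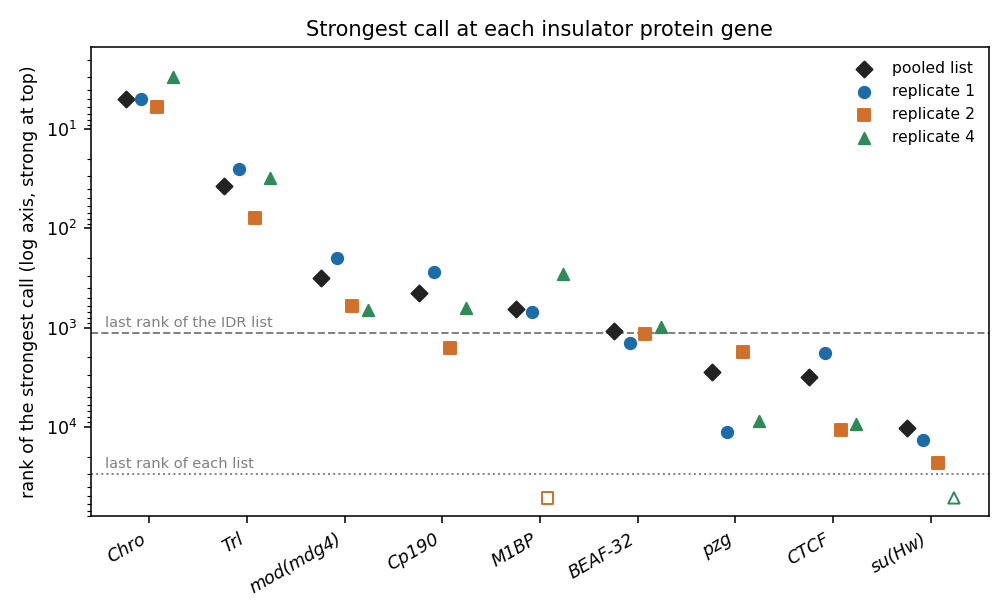
Rank of the strongest call at each of the 9 genes (vertical axis, log scale, strong calls at the top) in the pooled list and in replicates 1, 2 and 4. Open symbols below the dotted line mark lists with no call at the gene; the ranks at Chro lie between 3 and 6 in all 4 lists, while those at M1BP and su(Hw) include a list without a call.

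Chro, whose product is a chromodomain protein of active chromatin and of the mitotic spindle matrix, carried one of the strongest calls of the data. The gene (FBgn0044324, chr3L:22873702-22878984, minus strand) held a pooled call of rank 5 with a signal of 813, at chr3L:22878755-22879054. Only 9 genes, Chro included, had a best pooled call of that rank or stronger, which is 0.0492% of all genes. The summit lay in the 5' untranslated region, 97 bp downstream of the first transcription start site (TSS) of Chro. The same summit lay 202 bp upstream of the start of Ssl1, which encodes a subunit of the transcription factor TFIIH and is read in the opposite direction from a start 105 bp away. The peak thus lies in a promoter region shared by both genes, although it ends before the Ssl1 start, and cannot be assigned to one of them.

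The replicates placed this call alike. The signal was 234 at rank 5 in replicate 1, 333 at rank 6 in replicate 2 and 258 at rank 3 in replicate 4. The replicate summits lay 78, 90 and 110 bp downstream of the first Chro start, all within 19 bp of the pooled summit. A CGATA match centred 7 bp from the pooled summit is the site printed above. The rest of Chro held 1 further pooled call, at rank 11935 with a signal of 33.6, in an intron. Replicate 4 alone had calls there, the strongest at rank 4050.

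pzg, which encodes the zinc-finger partner of Chromator, had no IDR peak (FBgn0259785, chr3L:21286099-21290310, plus strand). Its strongest pooled call had rank 2797 and a signal of 64.8. The summit lay 174 bp upstream of the start of pzg and 37 bp downstream of that of CG12974, which is divergent with a gap of 137 bp. Overlapping calls ranked 11806 in replicate 1, 1776 in replicate 2 and 8766 in replicate 4. Replicate 2 thus gave the strongest of the 3, and no replicate placed this promoter among its top calls.

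Among the genes of proteins that bind DNA by sequence, Trl held the strongest and the most IDR peaks. Trl encodes GAGA factor, a BTB protein that binds GA-rich DNA and takes part in opening chromatin at promoters (FBgn0013263, chr3L:14747929-14761049, minus strand). Its best pooled call had rank 37 and a signal of 415 at chr3L:14759386-14759578. The summit lay in an intron, 1526 bp downstream of the first of 4 start sites, so the peak was not at an annotated promoter. It ranked 25 in replicate 1 with a signal of 139, 79 in replicate 2 with a signal of 121 and 31 in replicate 4 with a signal of 159. The replicate summits lay within 8 bp of the pooled one.

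The other IDR peaks of Trl were weaker and less even across replicates. They had ranks 835 and 1016 with signals of 123 and 113, overlapped each other, and lay in an intron shared with CG42507. Replicate 1 had a call there at rank 956, replicate 4 had calls at ranks 925 and 2322, and replicate 2 had none. A further 5 pooled calls ranked 1483, 2461, 6086, 7691 and 8430. The call of rank 2461, in the same intron as the strongest one, ranked 1078 in replicate 4 but 10502 in replicate 1 and 5805 in replicate 2. In all, Trl held 8 pooled calls over 13121 bp, and none of its 3 IDR summits lay within 500 bp of an annotated TSS.

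M1BP encodes a zinc-finger protein that binds the core promoter element Motif 1 and is linked to paused RNA polymerase II (FBgn0037621, chr3R:8729790-8731698, minus strand). Its IDR peak had rank 653 and a signal of 139 at chr3R:8731660-8732029. The summit lay 147 bp upstream of the M1BP start and 246 bp upstream of the divergent gene CG8202. Replicate 1 placed a call at rank 704 with a signal of 42.6, and replicate 4 one at rank 286 with a signal of 72.7. Replicate 2 had no call within 1000 bp of the gene, so the peak rests on 2 of the 3 replicates. A second pooled call, at rank 2375, overlapped the first on the side of CG8202. Replicate 4 had a separate call there at rank 911, 24 bp upstream of the CG8202 start.

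BEAF-32 encodes the boundary element-associated factor, which binds clusters of CGATA near promoters (FBgn0015602, chr2R:14770469-14772630, plus strand). Its IDR peak, rank 1074 with a signal of 109, was among the weakest of the IDR list. The summit lay 28 bp upstream of the first start. It was in an exon of the antisense RNA gene asRNA:CR42254, 171 bp upstream of the nearest start of that gene. Replicates 1, 2 and 4 ranked the call 1438, 1153 and 992, with signals of 31.1, 35.6 and 45.1. Only replicate 4 placed it among its top calls, though ranks in all 3 stayed close to the edge of 1143. A second pooled call, with signal 61.3 at rank 3099, was found 59 bp upstream of the last of the 3 annotated BEAF-32 starts. It ranked 8842, 1613 and 3142 in replicates 1, 2 and 4, so replicate 2 gave the strongest of those.

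CTCF and su(Hw), the genes of the zinc-finger insulator binders, had no IDR peak. CTCF (FBgn0035769, chr3L:7353578-7356713, minus strand) had its best pooled call at rank 3152 with a signal of 60.8, 118 bp upstream of its single start. Only replicate 1 had an overlapping call, at rank 1802 with a signal of 28.1. The best calls at CTCF in replicates 2 and 4 ranked 10694 and 9319 and lay elsewhere, in a coding exon and past the 3' end. su(Hw) (FBgn0003567, chr3R:14304455-14308589, minus strand) had 1 pooled call, rank 10270 with a signal of 35.5. Its summit lay 399 bp upstream of su(Hw) but 101 bp upstream of the divergent gene Polr2I, which encodes a subunit of RNA polymerase II. Replicate 1 had an overlapping call at rank 13438, replicate 2 had none and replicate 4 had no call near su(Hw) at all. Of the 9 genes, su(Hw) had the weakest best call in the pooled list.

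The cofactor genes Cp190 and mod(mdg4) both had an IDR peak. Cp190 encodes a BTB and zinc-finger protein that joins most insulator complexes (FBgn0000283, chr3R:15270432-15275241, minus strand). Its peak had rank 443 and a signal of 164 at chr3R:15275188-15275557. The summit lay 132 bp upstream of the Cp190 start and 149 bp upstream of that of the divergent gene CG4338, near the middle of the 281 bp between them. The start of asRNA:CR46081, lay 844 bp away. The call ranked 274 in replicate 1 with a signal of 62.7, 1612 in replicate 2 with a signal of 30.3 and 637 in replicate 4 with a signal of 53.9. Replicate 2 thus fell outside its top calls, although the 3 replicate summits lay within 14 bp of the pooled one.

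mod(mdg4) encodes a large set of BTB protein isoforms that share their first exons and differ in their last ones. Their messenger RNAs are known to be joined by trans-splicing, and the annotation lists 23 pre-mod(mdg4) genes inside mod(mdg4) for the separately transcribed last exons (FBgn0002781, chr3R:21350846-21377401, minus strand). The IDR peak, rank 320 with a signal of 188 at chr3R:21365313-21365682, lay at such internal starts and not at the promoter of the shared exons. Its summit was 11903 bp downstream of the mod(mdg4) start, 10 bp upstream of a start of pre-mod(mdg4)-E and 111 bp upstream of a start on the plus strand that 7 pre-mod(mdg4) genes share. Replicates 1, 2 and 4 ranked the call 198, 610 and 660, with signals of 70.2, 49.6 and 53.0. All 3 replicates thus placed it among their top calls.

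Calls also lay at another pair of internal starts of mod(mdg4). The second strongest pooled call of the gene, rank 2859 with a signal of 64.0, was 82 bp upstream of the plus-strand start of pre-mod(mdg4)-T and pre-mod(mdg4)-Z and 326 bp upstream of a minus-strand start that 8 pre-mod(mdg4) genes share. It ranked 2438 in replicate 1 and 1223 in replicate 4 and had no counterpart in replicate 2. Of the 7 distinct pre-mod(mdg4) starts, 5 had a pooled call within 500 bp, and these were served by the 2 calls just described. The start of the shared exons had a pooled call 195 bp downstream at rank 8894. In replicate 2, a call at rank 1744 lay in a coding exon near that end of the gene. It overlapped a pooled call of rank 16373 and no call of replicates 1 and 4.

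**Figure D2:**
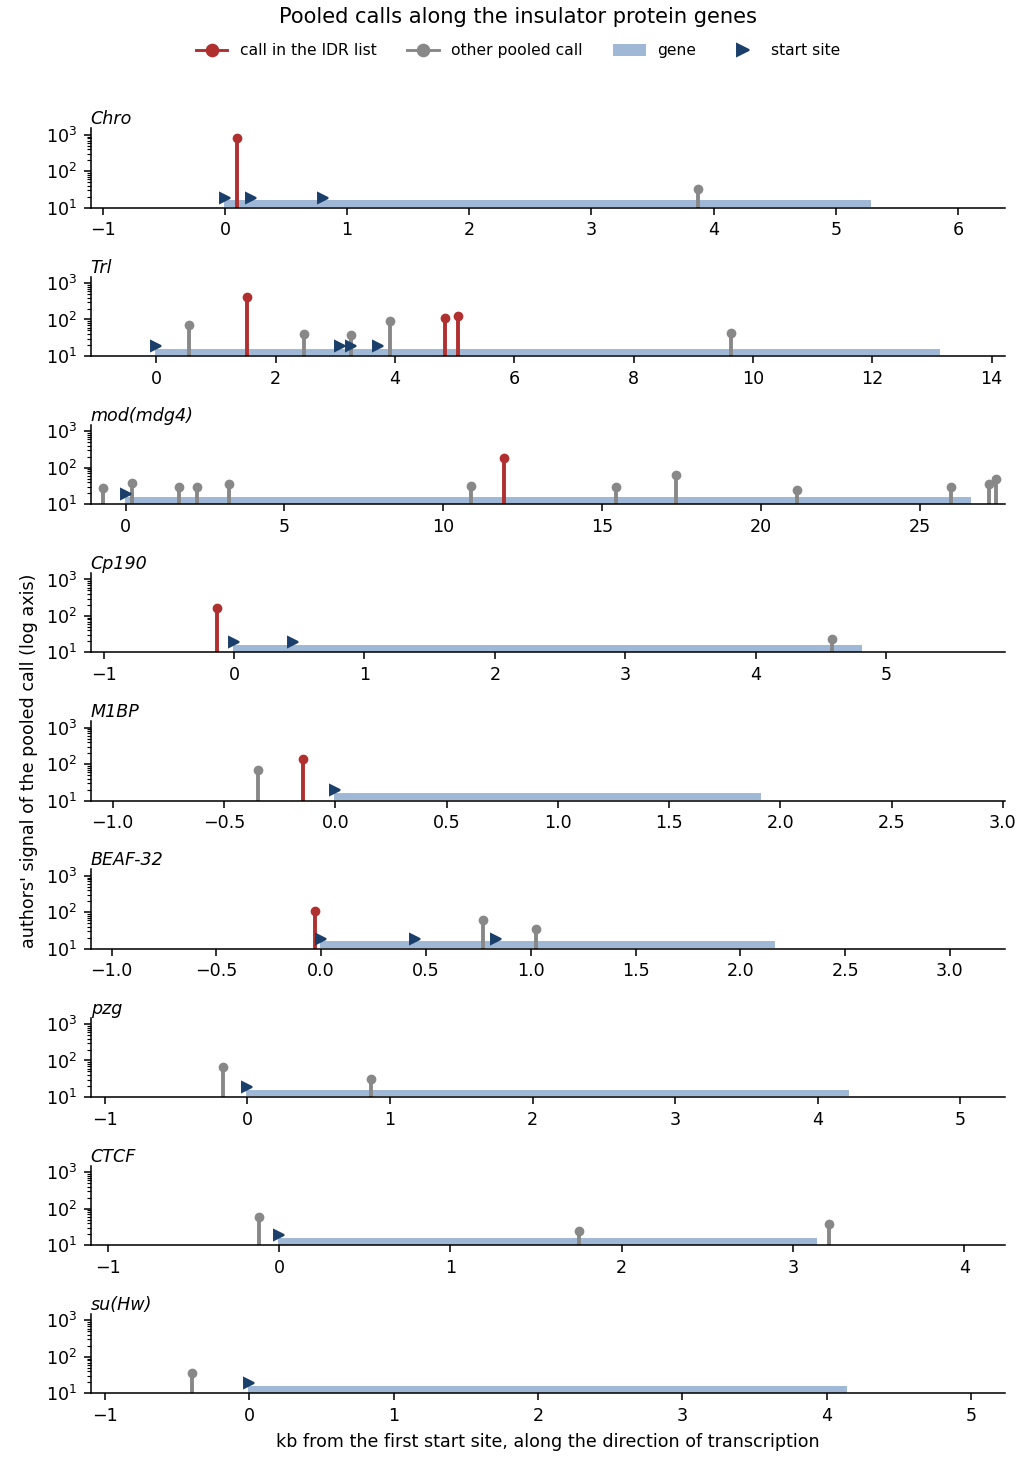
Pooled calls along the 9 genes, with distance in kb from the first start site along transcription (horizontal axis) and the authors' signal (vertical axis, log scale). Red stems are calls of the IDR list, grey stems other pooled calls, bars genes and triangles start sites; the IDR peaks at Trl and mod(mdg4) lie inside the gene, whereas those of Chro, Cp190, M1BP and BEAF-32 lie at the first start.

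Location therefore differed among the 6 genes with an IDR peak. Of the 8 IDR summits, 4 lay within 500 bp of a start of the gene itself (Chro, Cp190, M1BP and BEAF-32). Another lay within 500 bp of pre-mod(mdg4) starts, and the 3 at Trl lay within 500 bp of none. Of the 36 pooled calls at the 9 genes, 16 (44.4%) lay within 500 bp of any TSS, against 24.0% of all pooled calls and 54.9% of all IDR peaks. A divergent protein-coding neighbour started within 1000 bp of 6 of the 9 genes, at gaps of 105 bp for Chro, 137 bp for pzg, 281 bp for Cp190, 393 bp for M1BP, 500 bp for su(Hw) and 979 bp for Trl. The share of all genes with such a neighbour was not taken, so the count is not read as a trait of these genes. At Chro, Cp190 and M1BP the IDR summit lay within 500 bp of the starts of both genes of the pair. Only the Cp190 peak contained both starts, while those of Chro and M1BP ended before the start of Ssl1 or CG8202.

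**Figure D3:**
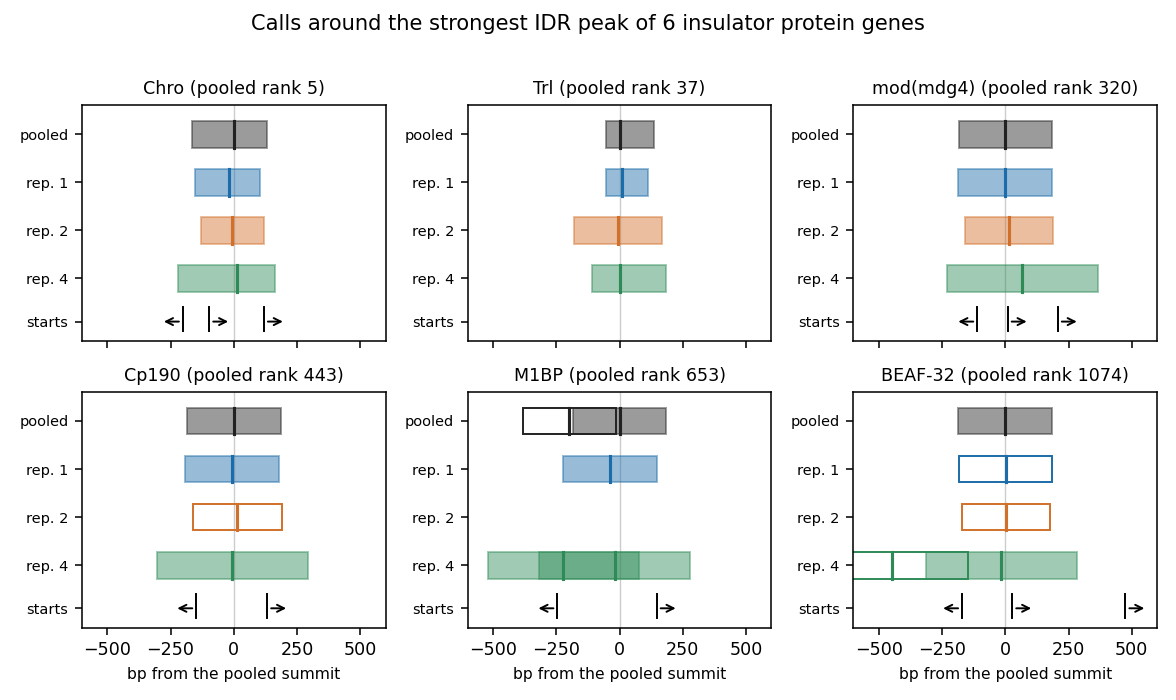
Extent of the calls within 500 bp of the strongest IDR summit of 6 genes, in bp from the pooled summit along the direction of transcription of the named gene; ticks mark replicate summits, filled boxes calls of rank 1143 or stronger, open boxes weaker calls, and arrows the starts of the gene and the nearest start of each neighbour. The summit of the strongest call of each replicate lies within 19 bp of the pooled one at Chro, Trl, Cp190 and BEAF-32, and replicate 2 has no box at M1BP. At BEAF-32 replicate 4 also has a weaker call, of rank 11873, and the boxes of replicates 1 and 2 are open, at ranks 1438 and 1153.

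Agreement between replicates differed among the IDR peaks. The summit lay inside a top call of all 3 replicates for 3 of the 8 peaks, of 2 replicates for 3 peaks and of 1 replicate for 2 peaks. The overlapping Trl peaks of ranks 835 and 1016 were counted as 2 peaks. The same counts over all 1143 IDR peaks were not taken, with or without replicate 2, so these numbers describe the 8 peaks only. Such support is not independent evidence, because the IDR list was itself built from the replicate lists. By replicate, top calls were present at 5 of the 9 genes in replicate 1, 3 in replicate 2 and 6 in replicate 4, against 8.45%, 8.04% and 7.94% of all genes. Without replicate 2, the genes with a top call in every remaining replicate numbered 5 in place of 3, with Cp190 and M1BP added, while the share of all genes was 5.37% in place of 3.83%. The supported IDR peaks then numbered 6 in place of 3. Most calls were 350 bp wide in replicate 2, against 370 bp in replicate 1 and 600 bp in replicate 4, so a summit is more easily covered in replicate 4. Genes were counted by the summits of the replicate calls, and whether call width bears on their ranks or summits was not tested. The supported peaks also numbered 3 with a 1 bp overlap, or a reciprocal overlap of 50%, with a top call of each replicate. The part of call width was not tested further.

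The median best pooled rank of the 9 genes was 653, against 7430 for all genes with a call. It was 1483 with calls counted only within 500 bp of a start of the gene, and 1612 by rank in replicate 2 alone. The calls of these genes nearest the edge of the IDR list were as follows. Inside it were the Trl call of rank 1016 with a signal of 113 and the BEAF-32 call of rank 1074 with a signal of 109. The nearest outside were the Trl call of rank 1483 with a signal of 92.7 and, much farther from the edge, the M1BP call of rank 2375 with a signal of 70.8. Longer genes more often hold an IDR peak. Among protein-coding genes the share was 21.2% at 10000 bp or longer, where Trl and mod(mdg4) fall, 13.5% from 5000 to 10000 bp, where Chro falls, 9.25% from 2000 to 5000 bp, where 2 of 5 of these genes had one, and 5.43% below 2000 bp, where M1BP falls.

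Of 6 sequences that insulator proteins are known to bind, 2 had a match in the peaks of these genes. Motifs were searched on both strands in the 8 IDR peaks, and their shares were taken in 300 bp windows around all IDR summits and at 19276 protein-coding start sites. CGATA was present in 4 of the 8 peaks (Chro, Cp190, BEAF-32 and the Trl peak of rank 835), against 36.0% of IDR windows and 45.6% of start site windows. The longer TATCGATA, which contains CGATA, was present in 2 (Cp190 and BEAF-32), against 4.11% and 7.98%. Within 300 bp windows at the 8 summits, the length used for those shares, CGATA was in 4, TATCGATA in 1 (Cp190) and AGNNGGCGC in 1 (Trl, rank 37). The Cp190 peak held 3 CGATA matches counted over both strands, and its 1 TATCGATA gave a match on each strand. The nearest match lay 119 bp from the Cp190 summit, in contrast to the 7 bp at Chro. GAGAG, the core bound by GAGA factor, was in 0 of the 8 peaks and 0 of the 8 windows, against 38.2% of IDR windows and 33.1% of start site windows. GGTCACAC of Motif 1 (2.27% of IDR windows and 6.71% of start site windows), AGNNGGCGC of CTCF (3.67% and 2.89%) and GCATACTT of Su(Hw) (2.10% and 1.17%) were also in 0 of the 8 peaks. A match describes letters only, and a missing match says nothing about binding of the factor.

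Base composition varied widely among these peaks. Over 300 bp at the summit, GC content was 42.3% at Chro and 22.7% at M1BP, the extremes of the 8 peaks. The median over all IDR peaks was 37%, with a range of 21.3% to 64%, so the M1BP window was close to the lowest value in the list. The windows of mod(mdg4), BEAF-32, Trl (rank 37) and Cp190 had 34%, 33.3%, 32.3% and 31%.

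Genes of other architectural proteins were described from a list of 36 symbols, of which 33 matched the annotation. IDR peaks reached 5 of the 33 (15.2%), against 8.3% of all genes and 9.62% of protein-coding genes. A pooled call was present at 29, against 68.7% of all genes, with a median best rank of 5102. Neither count allows for gene length, and nothing is read from its distance to the shares of all genes. Of the genes with an IDR peak, JIL-1, psq and fs(1)h are longer than 10000 bp. Among protein-coding genes of that length, 21.2% had an IDR peak. The strongest was JIL-1, which encodes a histone H3 kinase that associates with Chromator, at rank 234 with a signal of 213 in an intron. It was the only one of the 33 with a top call in every replicate, against 3.83% of all genes. The ranks of JIL-1 were 444, 382 and 125 in replicates 1, 2 and 4. The next were psq at rank 691, row at rank 886 with the summit 193 bp upstream of its start, the condensin gene Cap-H2 at rank 1087 and the bromodomain gene fs(1)h at rank 1116. At Cap-H2 the summit lay 62 bp upstream of MED7 and 216 bp upstream of Cap-H2 itself. The strongest without an IDR peak were pita at rank 2387, where the summit was 24 bp downstream of the wmd start, woc at rank 2391 and Dref at rank 2890, where it was 9 bp upstream of RpL13. Elba1, Elba3, dwg and insv had no pooled call.

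**Figure D4:**
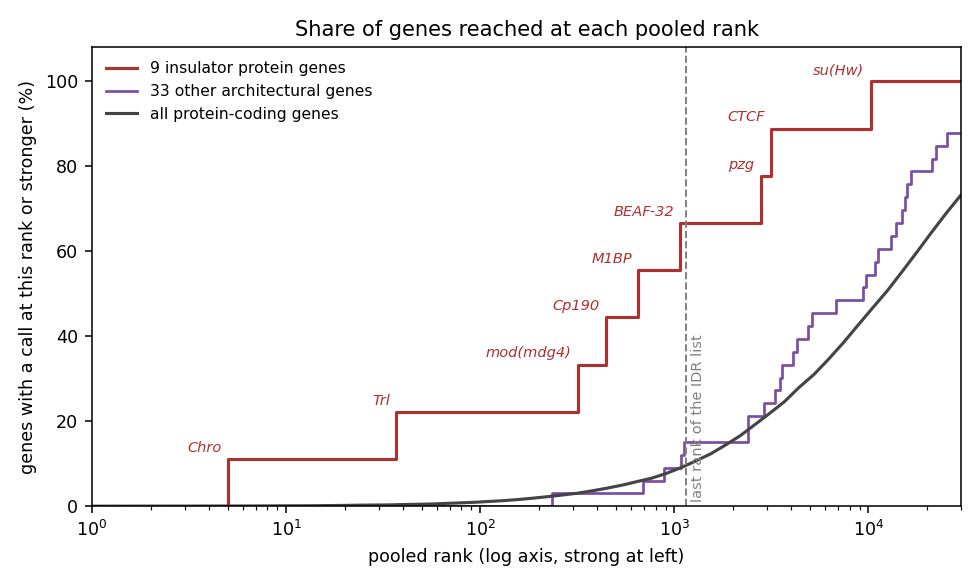
Share of genes (vertical axis, %) whose strongest pooled call has the rank on the horizontal axis (log scale) or a stronger one, for the 9 insulator protein genes, the 33 other architectural genes and all protein-coding genes. The line of the 9 genes starts with Chro at rank 5 and ends with su(Hw) at rank 10270, and the dashed line marks rank 1143, the end of the IDR list.

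The genes whose ranks were most like those of Chro were found among the 7430 genes compared, which had a call in all 3 replicates and shared none with Chro. Likeness was the sum over the 3 replicates of the absolute difference in log10 rank. The closest was ush, which encodes a cofactor of GATA factors, with ranks 6, 4 and 1 in replicates 1, 2 and 4 and a sum of 0.73. The Trithorax group gene ash1 and its neighbour CG14100 share 1 call, with ranks 4, 2 and 2 and a sum of 0.75. The Polycomb group gene ph-p had ranks 7, 5 and 12 and a sum of 0.83, and the mitochondrial ribosomal protein gene mRpS10 ranks 11, 9 and 17 and a sum of 1.27. The sum measures likeness of rank over 3 lists and nothing else about these genes.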

How the data were processed

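Anti-GFP ChIP-seq peak lists of CG10565-eGFP embryos in 3 biological replicates were used on assembly dm6. Per the notes deposited with each sample, the authors called regions in each replicate and in the pooled alignments against 1 control alignment and derived the IDR list from these. The aligner, caller and IDR cutoff were not given in those notes or the labels. The deposited signal of each call was made by the authors' caller and was used only to rank calls within a list. Depth per sample is unknown, so no interval for it is given. The lists on dm3 were not used here.

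Calls were joined to Ensembl release 115 (18277 genes, 23697 TSSs, 5896 transposable elements left out) with Python 3.11.15, pandas 2.3.3 and numpy 2.4.6, by a summit in the gene or within 1000 bp. Coordinates are 1-based. The join was tested on simulated data and placed 200 of 200 calls at their gene. The members and lists were chosen with earlier results of these data known, and no test was run. Named genes were the 9 members, genes starting within 1000 bp of their IDR summits, other architectural genes with an IDR peak plus the 3 next strongest, and the 5 genes most like Chro by replicate rank. The architectural genes without a pooled call, CG42507, which overlaps Trl, and genes that start near other calls described were named after their values were seen. Alternatives changed the gene window, the overlap, the assignment, the rank that counts as top and the replicates.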

Additional observations from a re-analysis of the deposited data

How the results depend on the processing

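Of 43 alternative values for counts, shares and the median rank over genes, 28 stayed within 1.5 times the reported value (for the median, within 1 SD of the 3 replicate medians) and 15 moved further. Values that stayed include 4 of the 9 genes with an IDR peak, in place of 6. This count came with the stronger part of the IDR list, and also with the summit within 500 bp of an own start. Another is 2 genes with a top call in every replicate, in place of 3, with a top set of 571. The share of all genes was then 2.02%, in place of 3.83%. With no window added to the gene, IDR peaks reached 3 of the 9 genes (Chro, mod(mdg4) and Trl), 3 of the other architectural genes and 3.22% of all genes, because peaks upstream of a start then fall outside. With the summit required within 500 bp of a start of the gene, they reached 3 of the other architectural genes and 4.91% of all genes, and the median best pooled rank of the 9 genes was 1483, since the strongest calls of Trl and mod(mdg4) lie away from their own starts. With each summit given to the nearest start only, the share of all genes was 5.51%. With the stronger part of the IDR list, its first 571 peaks, it was 4.50%, and 1 other architectural gene had a peak, because fewer peaks were left. With a top set of 2286 calls, 5 of the 9 genes had a top call in every replicate, against 6.53% of all genes, and 5 of the 8 IDR peaks were supported. With any call counted, 5 were supported. Shares of all IDR peaks were not taken for the counts of supported peaks. With 1 replicate left out, genes with a top call in every remaining replicate numbered 3 to 5, against 4.49% to 5.37% of all genes, and supported IDR peaks 3 to 6, the highest values all without replicate 2. By rank in replicate 2 alone, the median was 1612, and the cause was not tested. Of 36 alternatives for the strongest pooled call of a single gene, 28 stayed within 1 SD of the replicate ranks, 6 moved further and 2 left no call, at M1BP and su(Hw) with no window added, where every pooled call lies upstream of the gene. No paired analysis was possible because the samples form 1 group.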

Other observations

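The replicate lists held 103 calls at the 9 genes, and 33 of these overlapped no pooled call. They were 18 of 45 calls in replicate 1, 6 of 21 in replicate 2 and 9 of 37 in replicate 4. The same shares over all calls of the replicate lists were not taken, so nothing about these genes is read from the counts. The strongest of them, rank 3093 with a signal of 24.4 in replicate 2, lay past the 3' end of pzg. In replicates 1 and 4 the strongest such calls ranked 7985 and 9225. The call in replicate 1 lay 979 bp upstream of BEAF-32 and 67 bp upstream of the Spred start. The call in replicate 4 lay past the 3' end of Trl. These calls come from single lists and have no check in the pooled list.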
